A study of Mus musculus with 6 samples.

Results

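Transcripts of 9 genes that build the photoreceptor outer segment, and whose loss causes retinal degeneration, were followed in preparations of mouse retinal pigment epithelium (RPE) after damaging light. The genes were taken by symbol (Prph2, Rom1, Prom1, Cdhr1, Fscn2, Abca4, Rp1, Rpgrip1 and Tulp1), and all 9 were measured, by 13 probe sets, among 18193 genes on the array. RPE was taken from BALB/c mice, an albino strain, and every mouse had spent 1 week in the dark. Dark-adapted mice formed the control group of 3 arrays. Light-damaged mice, also 3 arrays, were then given 1.5 h of white fluorescent light at 6000 lux and sampled 24 h later. The labels give no genotype, age or sex for either group, and they do not say whether an array held 1 animal or a pool. Where samples of a group were not separate animals, the p-values speak of technical spread only. The question was which of these transcripts differed in RPE preparations after light damage.

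The outer segment of a rod or cone is a modified cilium packed with membrane discs that carry the visual pigment. New discs form at its base, where the connecting cilium delivers protein from the inner segment, and the RPE engulfs the shed tips. These genes are known chiefly as photoreceptor genes, although Abca4 and Prom1 have also been described in RPE. In people, their mutations cause retinitis pigmentosa, cone-rod dystrophy, Stargardt disease or Leber congenital amaurosis.

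Expression was read as log2 values from Affymetrix arrays, with array medians of 7.43 to 7.48, and precision is limited by having 6 arrays. The labelled tissue was checked against 14 RPE markers, of which all were measured. Rpe65, the retinoid isomerase that defines the RPE, read 14.14, 14.41 and 14.59 in dark-adapted and 13.10, 14.01 and 14.21 in light-damaged replicates 1, 2 and 3. Its dark-adapted mean was 14.38, and those of the rod genes Gnat1 and Sag were 14.53 and 14.46. The check therefore shows that RPE was present, not that the preparations were free of photoreceptor RNA. Both replicate 1 arrays stood apart from the other 4. Their first principal component, which took 74.4% of the variance, was at -38.6 and -68.7 against 18.8 to 34.0. The 3′ minus 5′ difference of the Gapdh controls, which widens with degraded or poorly labelled RNA, was 2.45 and 2.48 there against 1.54 to 1.80. Replicate numbers were used as pairs, so each difference is the light-damaged minus the dark-adapted value of a pair, averaged and given ± the standard error of limma's fit with that block (n = 3 per group). A gene was called where limma's p, adjusted over all genes, was under 0.05.

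Every one of the 9 genes had a lower mean in light-damaged RPE preparations, as 50.1% of all genes did. Rom1, Abca4 and Rpgrip1 fell, by 0.71, 0.56 and 0.63 on the log2 scale, which makes 3 of 9 genes called lower and none called higher. Over all genes 1.92% were called lower and 3.07% higher, 4.99% in all. At an unadjusted p under 0.05, 7 of the 9 were lower, against 9.57% of all genes. The median difference of the 9 genes was -0.48, and it was -0.43, -0.76 and -0.27 in pairs 1, 2 and 3, while the median of all genes was -9.4e-05. Differences of -0.5 or lower were found for 4 of the 9 genes and for 2.84% of all genes. In 8 of the 9 genes the light-damaged array was lower in all 3 pairs, against 20.7% of all genes. In bulk RNA, fewer cells of a type in a preparation and less RNA per cell cannot be told apart.

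These calls rest on the pairing and on single pairs. Without the block limma called 0 of the 9 genes (0% of all genes were called lower and 0.0495% higher), and 4 of the 9 had an unadjusted p under 0.05 against 1.98% of all genes lower at that level. With the block, 0 of the 9 were called when replicate 2 was left out, 1 (Rom1) when replicate 3 was left out, and 4 when replicate 1 was left out, Fscn2 being added. Leaving out the replicate 1 arrays in the fit without the block, a setting chosen after seeing the data, also gave 4, the same 3 genes and Fscn2.

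**Figure D1:**
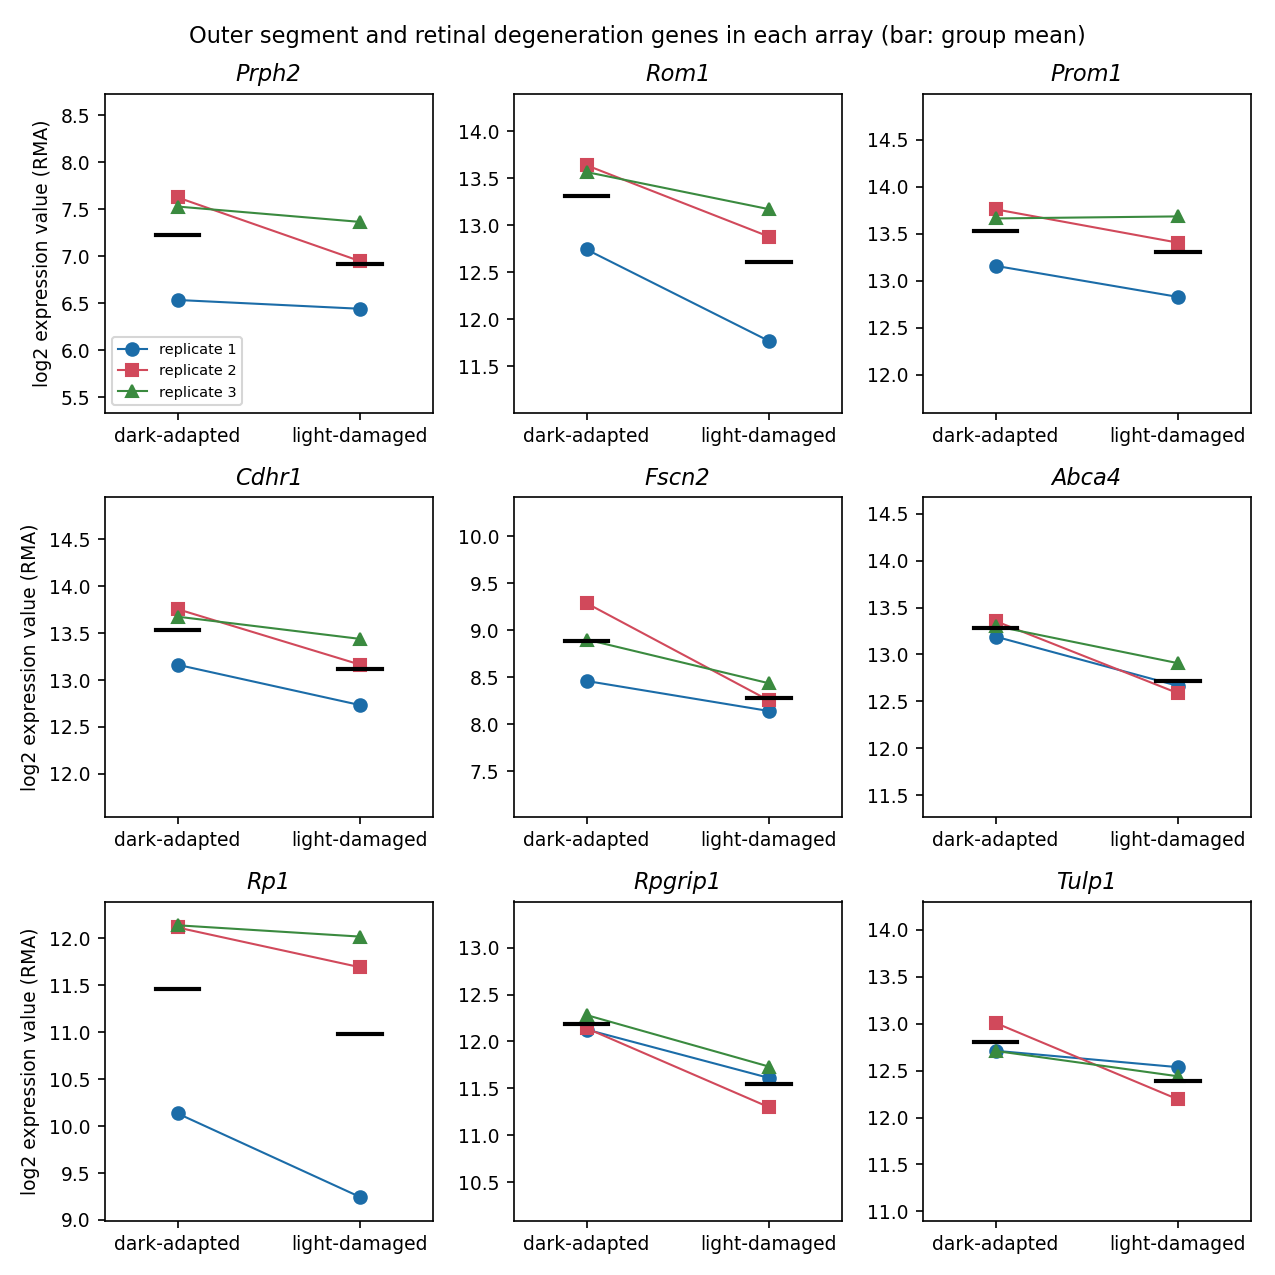
Log2 expression value (RMA) of each of the 9 genes in the 6 arrays, with a line joining arrays of the same replicate number and a black bar at each group mean; each panel spans the same height on the log2 scale. The groups do not overlap for Fscn2, Abca4, Rpgrip1 and Tulp1, and replicate 1 is far below the others for Rp1.

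The genes that fell are shown with the 250 bases before their RefSeq transcription start (GRCm38.p6). The reason was that Crx, a homeobox factor that binds in photoreceptor promoters, had the array pattern most like that of the 9 genes. That likeness was read from these same arrays and shares the distance of the replicate 1 arrays from the others. Whether Crx acts on these genes was not tested. Capitals mark GATTA, the short core of such sites, on either strand (TAATC), or GGATTA, the longer CRX core (TAATCC on the other strand), which contains it. The windows are chr19:8929357-8929606 (minus strand) for Rom1, chr3:122044210-122044459 (plus strand) for Abca4 and chr14:52110653-52110902 (plus strand) for Rpgrip1, each written 5′ to 3′ along the gene.
Rom1: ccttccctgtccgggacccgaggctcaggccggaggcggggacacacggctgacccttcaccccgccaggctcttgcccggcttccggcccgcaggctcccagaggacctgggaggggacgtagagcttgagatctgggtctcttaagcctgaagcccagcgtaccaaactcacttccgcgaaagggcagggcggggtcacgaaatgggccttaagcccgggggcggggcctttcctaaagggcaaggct
Abca4: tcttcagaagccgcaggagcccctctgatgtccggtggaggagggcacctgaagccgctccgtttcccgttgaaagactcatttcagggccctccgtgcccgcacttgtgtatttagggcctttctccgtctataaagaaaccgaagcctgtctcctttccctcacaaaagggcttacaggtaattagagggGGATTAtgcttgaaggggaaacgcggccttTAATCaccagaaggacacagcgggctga
Rpgrip1: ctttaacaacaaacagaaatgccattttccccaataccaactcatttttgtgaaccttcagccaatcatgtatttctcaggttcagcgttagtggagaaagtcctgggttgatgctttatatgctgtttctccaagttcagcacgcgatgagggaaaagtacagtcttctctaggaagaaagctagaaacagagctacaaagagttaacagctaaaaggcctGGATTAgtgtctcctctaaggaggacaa
The GGATTA motif begins 58 bases before the start in Abca4 and 28 bases before it in Rpgrip1, and the Rom1 window holds neither motif. Windows were found for 8 of the 9 genes, with 2 for Prom1. GGATTA was in 2 of these 9 windows and in 6.25% of 32851 promoter windows of that length. GATTA was in 4 of the 9, those of Abca4, Rpgrip1, Prph2 and the downstream start of Prom1, and in 19.8% of all windows. TGCTGA, a half-site of the rod factor NRL (TCAGCA on the other strand), was in 1 of the 9, that of Rpgrip1, and in 16.1% of all windows. In Prph2 the short core occurs in both orientations, 61 and 30 bases before the start. A match is a run of letters and was not tested as a binding site.

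Prph2 (peripherin-2) and Rom1 are the paired tetraspanins that hold the curved rim of each disc. Rom1 read 12.74, 13.64 and 13.57 in dark-adapted and 11.77, 12.88 and 13.17 in light-damaged replicates 1, 2 and 3. The light-damaged array was the lower in every pair, yet the groups overlapped because dark-adapted replicate 1 lay below 2 of the light-damaged arrays. Its mean went from 13.32 ± 0.50 (SD, n = 3) to 12.61 ± 0.74, which is -0.71 ± 0.13 and 1.64-fold lower (limma adjusted p = 0.031, over a range of 0.018 to 1.00 among its alternatives), and the fall was larger in pair 1 (-0.97) than in pair 3 (-0.39). Without the block the same difference did not pass (limma adjusted p = 1.00). Prph2 read 6.53, 7.63 and 7.53 in dark-adapted and 6.44, 6.95 and 7.37 in light-damaged arrays, values close to the array medians. Its groups overlapped. The Prph2 difference was -0.31 ± 0.13 (limma adjusted p = 0.27), with a 95% interval from -0.63 to 0.01, with -0.68 in pair 2 against -0.09 and -0.16 in the others. Leaving out replicate 2 brought it to -0.13. RMA compresses small differences of dim probe sets, and whether it did so for Prph2 was not tested.

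Prom1, Cdhr1 and Fscn2 belong to the base of the outer segment, where discs are born. Cdhr1, a photoreceptor protocadherin at the edge of growing discs, read 13.16, 13.76 and 13.68 in dark-adapted and 12.73, 13.17 and 13.44 in light-damaged replicates 1, 2 and 3. Every pair was lower, from -0.59 to -0.24, and the groups overlapped. The Cdhr1 difference of -0.42 ± 0.10 did not pass (limma adjusted p = 0.076), and its 95% interval was -0.66 to -0.18. Fscn2, the photoreceptor fascin that bundles actin where discs form, read 8.46, 9.29 and 8.90 against 8.14, 8.25 and 8.44. All light-damaged arrays lay below all dark-adapted ones, by 0.02 at the closest. Its mean went from 8.88 ± 0.41 (SD, n = 3) to 8.28 ± 0.15, a difference of -0.61 ± 0.15 (limma adjusted p = 0.076), and pair 2 had the widest gap (-1.04). Without replicate 1 Fscn2 differed by -0.75 and passed (limma adjusted p = 0.030, over a range of 0.021 to 1.00 among its alternatives). Prom1, which codes for prominin-1 of the membrane edges of nascent discs, moved least: it read 13.16, 13.76 and 13.66 against 12.83, 13.41 and 13.69. Pair 3 went slightly up (0.02), the one pair of all 9 genes that was not lower. The Prom1 difference was -0.22 ± 0.11 (limma adjusted p = 0.34), with a 95% interval from -0.48 to 0.04.

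Abca4 is the flippase that clears retinaldehyde adducts from the disc lumen, and it carries both a GGATTA and a separate TAATC in the window shown. It read 13.19, 13.36 and 13.30 in dark-adapted and 12.67, 12.59 and 12.91 in light-damaged replicates 1, 2 and 3. The groups did not overlap, and the dark-adapted arrays lay close together. Abca4 fell from 13.28 ± 0.08 (SD, n = 3) to 12.72 ± 0.17, so that the difference was -0.56 ± 0.10 and 1.48-fold (limma adjusted p = 0.035). Pairs 1, 2 and 3 gave -0.52, -0.77 and -0.40. Without the block the limma adjusted p was 0.30 (unadjusted p = 0.0047), and without replicate 2 or replicate 3 it was 0.11 or 0.10, over a range of 0.015 to 1.00 among all alternatives.

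Rpgrip1 and Rp1 serve the ciliary skeleton. Rpgrip1 anchors the GTPase regulator RPGR in the connecting cilium. It read 12.13, 12.14 and 12.28 in dark-adapted and 11.61, 11.30 and 11.73 in light-damaged replicates 1, 2 and 3. No arrays overlapped between groups, and the smallest change of any pair was -0.51. Rpgrip1 fell from 12.18 ± 0.09 (SD, n = 3) to 11.55 ± 0.22, that is by -0.63 ± 0.10 and 1.55-fold (limma adjusted p = 0.024). The limma adjusted p was 0.30 without the block, 0.066 without replicate 2 and 0.10 without replicate 3, over a range of 0.0049 to 1.00 among all alternatives. Of its 3 other probe sets, the next brightest gave -0.82 and the one after it -0.86, lower in all 3 pairs of each. When every probe set was tested by limma with the block, the former passed (adjusted p = 0.0089) and the latter did not (adjusted p = 0.12). The dimmest read 5.20 to 5.63 in every array and gave -0.12.

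Rp1, a microtubule protein of the axoneme that stacks discs in order, had the widest spread of the 9 genes. It read 10.13, 12.12 and 12.14 in dark-adapted and 9.25, 11.69 and 12.02 in light-damaged replicates 1, 2 and 3. Both replicate 1 arrays lay far below the other 4, and the groups overlapped. The Rp1 difference was -0.48 ± 0.15 (limma adjusted p = 0.15), running from -0.89 in pair 1 to -0.12 in pair 3. It was -0.27 when replicate 1 was left out. The second Rp1 probe set read 7.11 to 7.49 in all arrays and gave -0.0058, with pair 1 higher by 0.26. In it, replicate 1 minus the mean of replicates 2 and 3 was -0.34 in dark-adapted and 0.05 in light-damaged arrays, so the 2 probe sets do not give the same account of Rp1.

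Tulp1, a tubby-like protein needed for transport of outer segment proteins out of the inner segment, read 12.71, 13.01 and 12.71 in dark-adapted and 12.54, 12.19 and 12.44 in light-damaged replicates 1, 2 and 3. The groups did not overlap. Its difference was -0.42 ± 0.14 (limma adjusted p = 0.17), most of it in pair 2 (-0.81 against -0.17 and -0.27). In all, groups without overlap were found for 4 of the 9 genes, Fscn2, Abca4, Rpgrip1 and Tulp1, and 3.72% of all genes had light-damaged arrays below all dark-adapted ones.

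**Figure D2:**
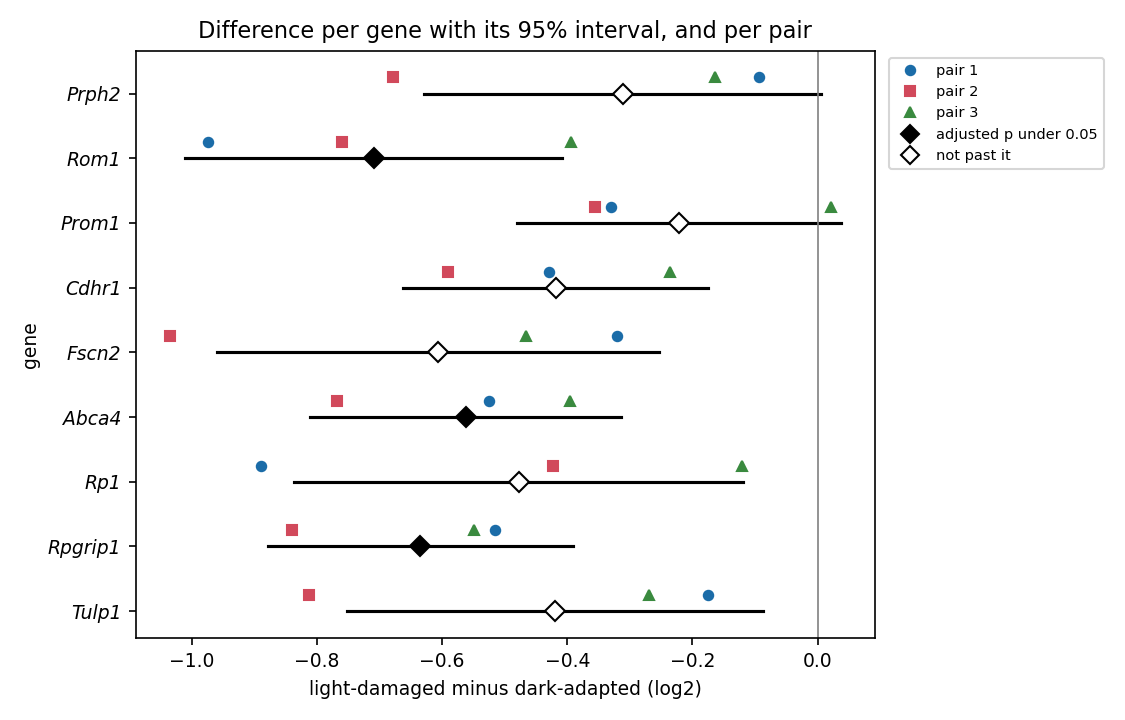
Light-damaged minus dark-adapted difference (log2) of each gene with its 95% interval from the fit with the replicate block (diamond and line, filled where the adjusted p is under 0.05) and the value of each pair. Rom1, Abca4 and Rpgrip1 are filled, and pair 2 has the lowest value for 7 of the 9 genes.

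The size of the change was compared within arrays as each gene minus the mean of the other 8, which shows unequal change only and was not tested. Prom1 changed less than the rest in all 3 pairs, by 0.16, 0.38 and 0.35, and Prph2 by 0.43, 0.02 and 0.14. Cdhr1 was also on that side in every pair, by 0.05 to 0.12. Rom1 changed more than the rest in all 3 pairs, by -0.56, -0.07 and -0.12. So did Rpgrip1 (-0.05, -0.16 and -0.30) and Abca4 (-0.06, -0.08 and -0.12). Fscn2, Rp1 and Tulp1 went both ways. The rim partners Rom1 and Prph2 lay on opposite sides of the other genes in each pair, but narrowly in pair 2 (-0.07 and 0.02). Each of them is among the 8 genes that its partner is set against, so this opposition is partly built in. Their widest values (-0.56 and 0.43) came from pair 1, whose arrays stood apart. Their 95% intervals of -1.01 to -0.41 and -0.63 to 0.01 overlapped. Prph2 was dim, with a mean of 7.07 over all arrays against 12.96 for Rom1. RMA compresses small differences of dim probe sets, and its part in the smaller change of Prph2 was not tested.

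A second axis of variation ran between replicates. In the dark-adapted arrays, replicate 1 minus the mean of replicates 2 and 3 was -1.99 for Rp1, -1.04 for Prph2, -0.86 for Rom1, -0.63 for Fscn2 and -0.55 for both Prom1 and Cdhr1. It was -0.14, -0.15 and -0.08 for Abca4, Tulp1 and Rpgrip1. In the light-damaged arrays it was -2.61 for Rp1, -1.26 for Rom1, -0.72 for both Prph2 and Prom1, -0.57 for Cdhr1 and only -0.20 for Fscn2, beside -0.08, 0.10 and 0.22 for Abca4, Rpgrip1 and Tulp1. These last 3 and Fscn2 were the genes whose groups did not overlap, and the 5 genes with a gap of -0.55 or wider in both groups were those that overlapped. Across all genes 26.7% had both replicate 1 arrays below the other 4. RNA quality values moved with replicate 1, as given above, and their part in these gaps was not tested. Over the 6 arrays, which share the replicate 1 gap, Pearson's r between the genes ran from 0.09 (Rp1 with Tulp1) to 0.98 (Rom1 with Cdhr1), with a median of 0.78 over 36 pairs of genes.

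**Figure D3:**
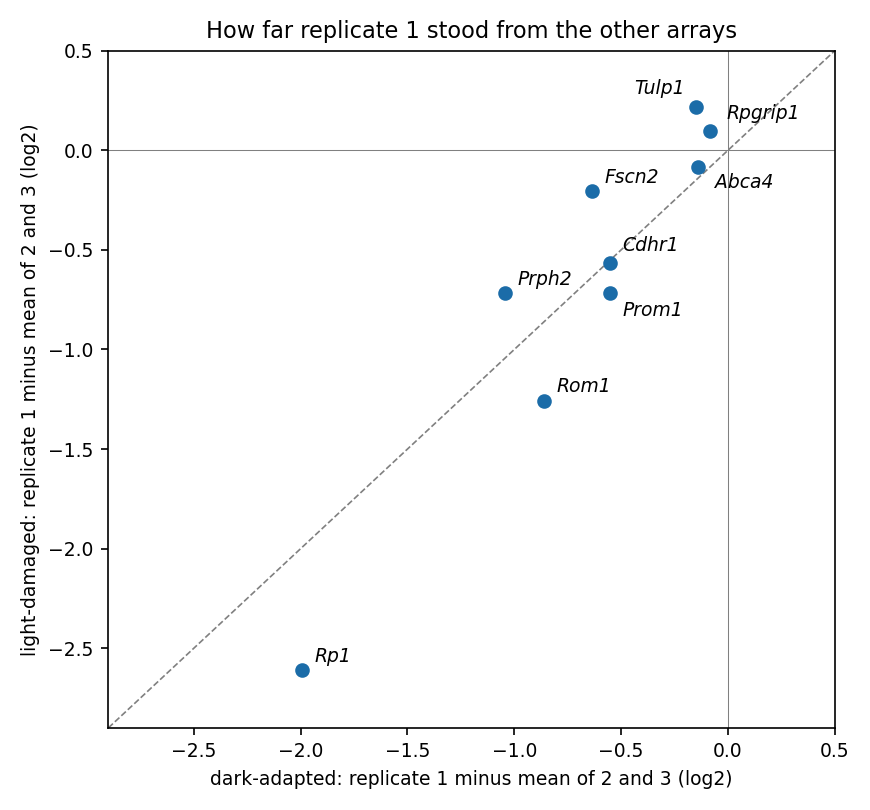
For each gene, replicate 1 minus the mean of replicates 2 and 3 (log2) in dark-adapted arrays (horizontal) and light-damaged arrays (vertical), with a dashed line of equality. Rp1 stands at -1.99 and -2.61, and Abca4, Rpgrip1 and Tulp1 lie near 0 on both axes.

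The genes most like the 9 in pattern were sought by Pearson's r over the 6 arrays with the mean of their gene-centred values, among 4022 other genes with a range of at least 1 on the log2 scale. Crx ranked first (r = 0.998), followed by Gpr135, Gjd2, BB283400 and A430035B10Rik, all with r of at least 0.994. These values are a description and share the replicate 1 gap. Crx, the homeobox factor that drives many photoreceptor genes, read 12.20, 12.83 and 12.78 in dark-adapted and 11.66, 12.15 and 12.48 in light-damaged replicates 1, 2 and 3. It fell by 0.51 (-0.51 ± 0.10, limma adjusted p = 0.047) and did not pass without the block (limma unadjusted p = 0.11). Its second probe set gave -0.37, which did not pass when every probe set was tested by limma with the block (adjusted p = 0.24). Gjd2, the neuronal gap junction gene, fell by 0.76 (-0.76 ± 0.16, limma adjusted p = 0.0499) and did not pass without the block (limma unadjusted p = 0.19). BB283400 and A430035B10Rik fell more (-1.39 ± 0.14 and -1.34 ± 0.13, limma adjusted p = 0.0059 and 0.0051). Neither passed without the block (limma unadjusted p = 0.093 and 0.10). Gpr135 differed by -0.43 ± 0.12 and did not pass with the block (limma adjusted p = 0.10).

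Other photoreceptor genes were read from lists. Of 16 further genes of the outer segment, its membrane supply and its matrix, 5 fell and 1 rose, with a median of -0.42. Rdh12, a retinaldehyde reductase of photoreceptors, fell by 0.93 (-0.93 ± 0.14), Crb1, of the outer limiting membrane, by 0.80 and Reep6, a rod trafficking protein, by 0.79. With every probe set tested by limma, a dimmer Crb1 probe set gave -0.17 and did not pass (adjusted p = 0.66). A dimmer one of Rdh12 gave -0.88 and passed (limma adjusted p = 0.019). Slc24a1, the rod calcium exchanger, and Prcd, a small disc protein, fell by 0.72 and 0.56. Pcare, a ciliary actin regulator needed for disc formation, went the other way and rose by 0.67 ± 0.12 in limma (adjusted p = 0.034, higher in 3 of 3 pairs). Rbp3, Impg1, Pcdh15, Rd3 and Aipl1 had differences between -0.11 and 0.06 that did not pass. Elovl4 (-0.66), Mpp4 (-0.65), Stx3 (-0.57), Atp8a2 (-0.27) and Cerkl (-0.23) did not pass either, though each was lower in 3 of 3 pairs.

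Of 20 genes of the cilium and axoneme, Cc2d2a, a transition zone protein, fell by 0.47 and the other 19 did not pass, with a median of -0.15. Rpgr, whose protein is held by Rpgrip1, had a difference of -0.32 ± 0.09 (limma adjusted p = 0.11), and Rp1l1, the paralogue of Rp1, -0.56 ± 0.14 (limma adjusted p = 0.084). Among 15 paralogues of the 9 genes, none passed by limma at the adjusted p, 4 had an unadjusted p under 0.05 (3 lower and 1 higher), and the median was 0.03. Without the block 0 of these 15 had an unadjusted p under 0.05.

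Rod phototransduction genes fell in 3 of 16 cases (Pde6g, Gngt1 and Pde6b) with a median of -0.39, and cone genes in 4 of 9 with 1 rise, with a median of -0.57. The cone opsin Opn1sw fell by 1.72 ± 0.15, whereas Gnb3, a G protein subunit of cones and ON bipolar cells, rose by 1.11 ± 0.09. The other cone genes that fell were Arr3, Gnat2 and Cngb3 (-0.92, -0.89 and -0.58). A dimmer Opn1sw probe set gave -0.59 and did not pass when every probe set was tested by limma (adjusted p = 0.096). Dimmer Arr3 probe sets gave -0.28 and -0.73 and did not pass there either (limma adjusted p = 0.18 and 0.059). Photoreceptor transcription factors fell in 3 of 9 cases (Rorb, Nrl and Crx) with a median of -0.37. Whether the 9 outer segment genes differ from these lists was not tested.

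Markers of other cells in the preparations moved as well. Of 14 RPE markers, Rrh, Lrat, Slc16a8 and Rdh10 fell and none rose, and all 14 differences were below 0 (median -0.49). The mean of their gene-centred log2 values ran from 0.13 to 0.44 in dark-adapted and from -0.54 to -0.04 in light-damaged arrays. For the 9 outer segment genes that mean was -0.20, 0.52 and 0.41 in dark-adapted and -0.68, -0.18 and 0.13 in light-damaged replicates 1, 2 and 3. Of 14 macrophage and microglia markers 13 rose, led by the lysosomal gene Cd68 (2.11 ± 0.11), and their mean ran from -0.57 to -0.31 in dark-adapted and from 0.38 to 0.60 in light-damaged arrays. None of 8 bipolar and amacrine markers passed by limma, all 8 were below 0 with a median of -0.42, and 5 had an unadjusted p under 0.05. Of 9 Müller glia markers Vim and Gfap rose, by 1.28 and 0.74, and none was called lower. The list went both ways: 5 of the 9 were below 0, with a median of -0.22. At an unadjusted limma p under 0.05, 4 of the 9 were lower and 2 higher. None of 7 ganglion cell markers passed by limma, at an unadjusted p under 0.05 either, and of 7 endothelial markers Vwf rose. The part of any of these shifts in the falls of Rom1, Abca4 and Rpgrip1 was not tested.

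**Figure D4:**
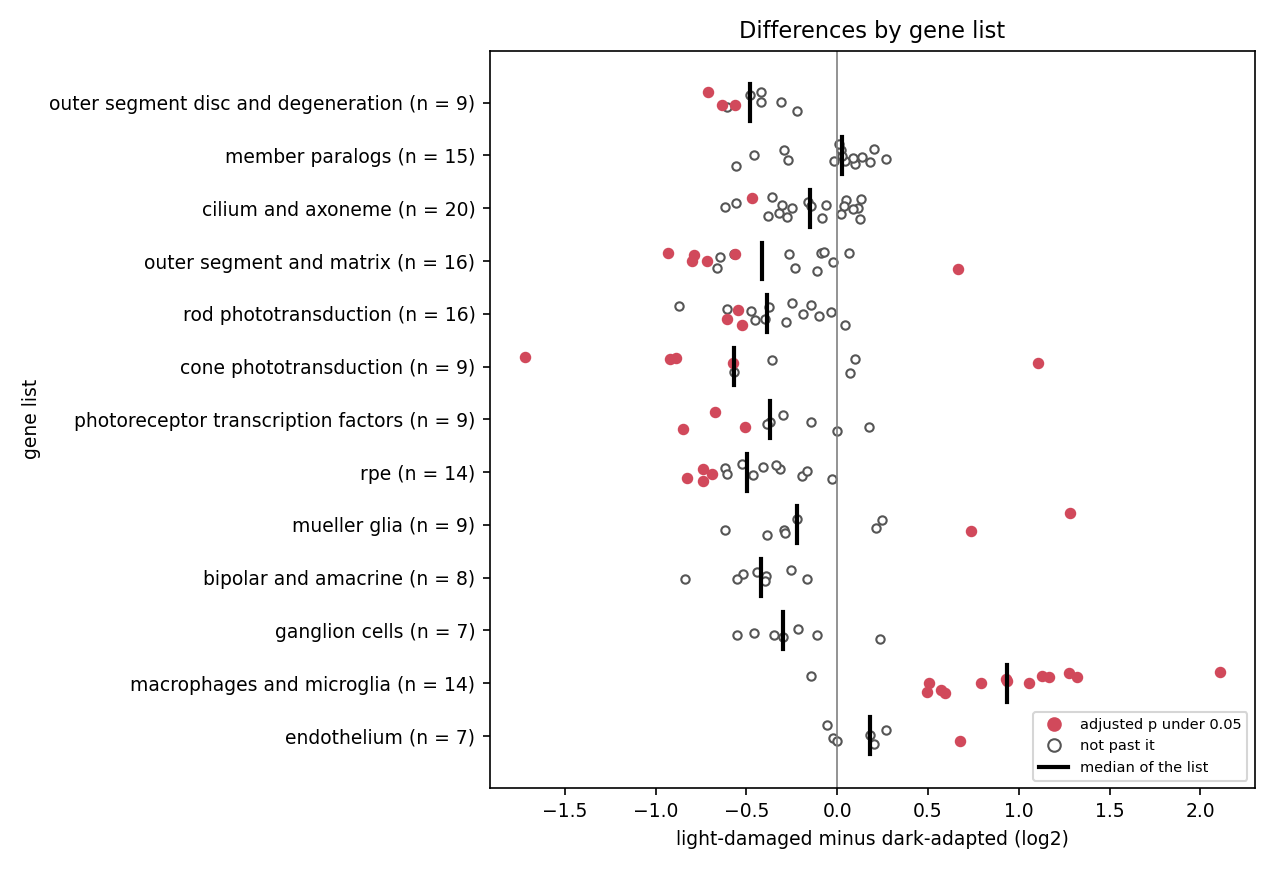
Light-damaged minus dark-adapted difference (log2) of each measured gene, by list, from the fit with the replicate block; red points have an adjusted p under 0.05 and the black bar is the list's median. The 9 outer segment genes all lie below 0 with a median of -0.48, and macrophage and microglia markers lie above 0 but for 1 gene.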

How the data were processed

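RPE RNA was isolated with Trizol followed by column clean-up, and a small-sample biotin labelling was used, per the labels' protocols. The authors deposited log2 expression values per probe set for 6 arrays; the submitters' processing notes name RMA (background correction, normalization between arrays, 1 summary per probe set). For its version and for which arrays it took together, the entry is: not given in the sources used here. The values carry no detection calls.

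Of 45101 probe sets 64 were controls. GEO's annotation of the platform gave 34945 exactly 1 symbol, 932 several and 9160 none used here. The Entrez number of 34741 was in the RefSeq table (GRCm38.p6), which changed 0 symbols. Each gene was represented by its probe set of highest mean over all arrays, leaving 18193 genes. Promoter sequences are RefSeq's.

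The comparison used limma 3.58.1 under R 4.3.3 (lmFit, eBayes, two-sided, Benjamini-Hochberg over all genes), with the replicate number as a block and 2 residual degrees of freedom. The fit was tested on simulated data. The labels do not say what a replicate number marks. The numbers were set as pairs in advance, by the rule that defined the genes. Taken as deviations from the group mean, arrays of the same number correlated across genes at 0.89, 0.62 and 0.86, over the bound of 0.1. Both replicate 1 arrays stood apart from the others, which alone can bring such correlations, so this check cannot decide the pairing. Replicates 2 and 3 are less surely paired: their difference correlated at 0.33 between groups. The deviations of dark-adapted replicate 2 and light-damaged replicate 3 correlated at 0.65, and those of dark-adapted 3 and light-damaged 2 at 0.61. The bound would thus also pass with replicates 2 and 3 exchanged.

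The genes and lists were chosen with earlier results of these data known, so no list is independent evidence. Named were the 9 genes, up to 4 genes of each list by unadjusted p, called list genes, and the 5 genes nearest in pattern. Of the called macrophage and microglia markers, however, only Cd68 was named. Other list genes were named after their values were seen. Other probe set choices, normalizations, limma settings and left-out arrays were tried. List genes without a probe set of their own were not analysed here.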

Additional observations from a re-analysis of the deposited data

How the results depend on the processing

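All 9 differences stayed below 0 in the fit without the replicate block, with each pair left out, and under the 9 other settings tried (quantile normalization, median centring, dim genes left out, which drops Prph2, a pseudocount of 16, 3 probe set choices, trend and robust settings, array weights). The exceptions came from leaving out light-damaged replicate 1 without the block, where Prom1 reversed to 0.018 and Rp1 to 0.39; that leaves the low dark-adapted replicate 1 array without its partner. The dimmer Rp1 probe set brought Rp1 to -0.0058. The median of the 9 genes ran from -0.65 to -0.39 with a pair left out and from -0.66 to -0.29 without the block and without 1 array. The number of the 9 genes called lower was 3 or 4 under the 9 other settings, 0 without the block, 0 to 4 with a pair left out, and 0 in each case without the block and 1 array.

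Over all genes, 349 were called lower and 559 higher. Without the block these were 0 and 9, and 0 and 3 to 12 with 1 array also left out. With a pair left out they were 68 to 418 and 160 to 827. Array weights gave 776 and 1099, leaving out dim genes 365 higher, and the fit without the block and without replicate 1 in both groups, added after seeing the data, 217 lower. With all 6 arrays the residual degrees of freedom were 2 with the block and 4 without it. Why the counts changed between settings was not tested. The absence of detection calls limits what can be said of Prph2 and of the dim probe sets of Rp1 and Rpgrip1.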
